A study of Lactuca sativa with 24 samples.

Results

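In leaves of the lettuce Lactuca sativa, 66 genes had reads in every deeply sequenced library of the variety Luna bionda and not a single read in any deeply sequenced library of the variety Falstaff. These 66 genes are described here, out of 31499 measured. They were selected on their read numbers: a member had at least 0.5 CPM, that is reads of the gene per total reads of the library on a scale that sums to 1000000, in each of 11 Luna bionda libraries and 0 reads in each of 7 Falstaff libraries. The difference between the varieties was therefore used to choose them and is given without a test. Of the 31499 genes, 17047 met the CPM minimum in the 11 Luna bionda libraries. The mirrored rule, with the varieties exchanged, gave 111 genes.

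Both varieties are wild type. The Luna bionda groups were day 0 under visible light, day 6 under visible light only, and day 6 with UVB for 2.5 h or 7.5 h per day. The Falstaff groups were day 0, day 6 under visible light only, day 6 with UVB for 2.5 h per day and day 6 with UVA for 7.5 h per day. UV was given at 0.4 W per square metre, and each of the 8 groups held 3 libraries of leaf RNA. The names of the deposited tables give the libraries other groups. Of 12 Luna bionda libraries 5 have the same group in both, namely the 3 of UVB 2.5 h and UVB 7.5 h replicates 2 and 3, and of 12 Falstaff libraries 0 do. By the table names the day 0 libraries of Luna bionda would be day 6 visible light, visible light replicate 1 would be UVB 7.5 h, and visible light replicates 2 and 3 with UVB 7.5 h replicate 1 would be day 0. Groups follow the labels throughout, and which is right was not settled. The varieties are the same in both, so the choice of members does not rest on it. By the table names, day 6 against day 0 would largely be the opposite comparison, and those with visible light would be made against other libraries. Separate plants are not stated as the source of the libraries in a group. The p-values therefore reflect differences among these libraries, possibly technical ones.

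Crop varieties differ in their gene content and in which of their shared genes are transcribed, and RNA reads alone cannot tell a gene that is missing from one that is silent. Long noncoding RNAs (lncRNAs), transcripts without a long reading frame, are often low in level, and in Arabidopsis they vary more between accessions than protein-coding genes do. UVB is sensed in plants by the photoreceptor UVR8 and is known for inducing flavonoid and other protective genes in leaves. In bulk tissue, fewer cells of a type and less RNA per cell cannot be told apart.

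In the 18 deep libraries between 12072410 and 43276819 reads fell in genes, and in the 6 shallow libraries between 464282 and 1036697. The shallow libraries were Luna bionda UVB 7.5 h replicate 1 and 5 of Falstaff, namely day 0 replicate 1, visible light replicate 2, UVB 2.5 h replicate 1 and UVA replicates 1 and 3. They stood apart in more than depth: psbA, the plastid gene for the photosystem II reaction centre protein D1, lay between 28431 and 82829 CPM in them and between 0.416 and 39.1 CPM in the deep ones. The plastid genes rbcL, psaB, psbC, psbD and atpB were at 0 in all 18 deep libraries. The batch tags in the labels fall into a low-number and a high-number series. The 6 shallow libraries, the 3 of Luna bionda UVB 2.5 h and Luna bionda day 0 replicate 2 carried low-number tags, and all other libraries high-number tags.

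The members were mostly noncoding. Of the 66, 51 are annotated as lncRNA (77.3%) and 15 as protein coding (22.7%) in the RefSeq annotation of assembly Lsat_Salinas_v11. Among all genes at the CPM minimum, lncRNAs made up 6.41% and protein-coding genes 93.2%. Put the other way, 4.67% of the 1092 lncRNAs at the minimum were members, against 0.0944% of the 15893 protein-coding genes. The mirrored Falstaff set had a similar make-up, with 81 lncRNAs (73%) and 30 protein-coding genes (27%). The annotation table used here names all of them by locus identifier only, so no function is given for any member.

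**Figure D1:**
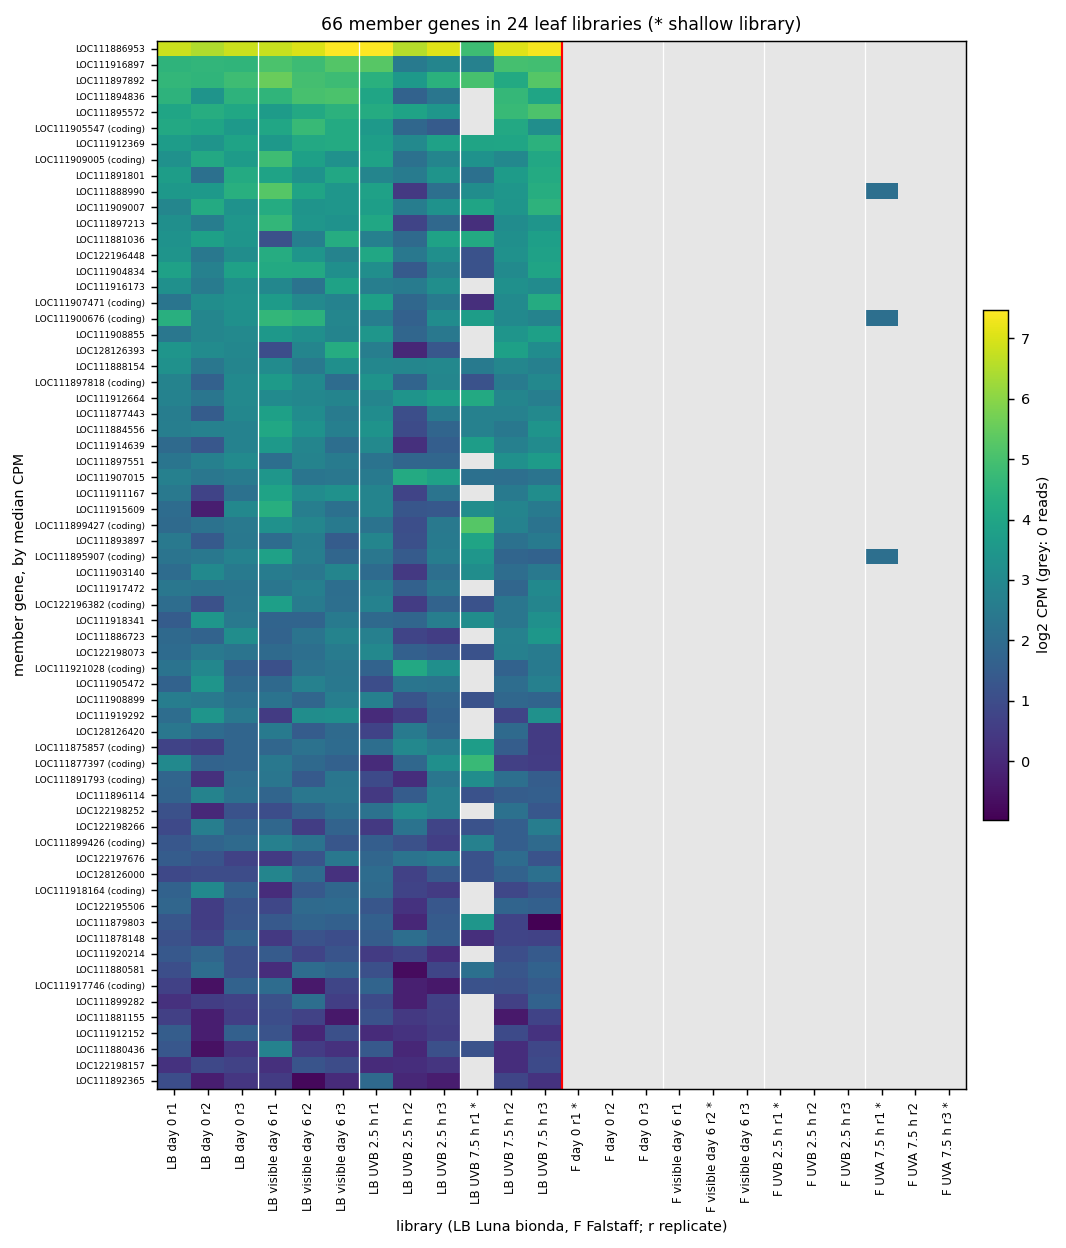
Levels of the 66 members in all 24 libraries, as log2 CPM by colour, with members in rows from the highest to the lowest median and libraries in columns, Luna bionda (LB) left of the red line and Falstaff (F) right of it. Grey cells hold 0 reads. The 11 deep Luna bionda columns are filled throughout, the shallow one (asterisk) has 43 of 66 members with reads, and the Falstaff side holds 3 filled cells, all in the shallow UVA replicate 1.

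The members' medians ran from 1.21 to 131 CPM. The median CPM of a member over the 11 deep Luna bionda libraries had a median of 5.22 over the 66 members, against 14.6 over all genes at the minimum. There were 37 members at a median of 5 CPM or more, 13 at 10 or more and 4 at 20 or more. The lncRNA members had a median of 5.36 CPM and the protein-coding members one of 5.12 CPM, whereas all lncRNAs at the minimum had 7.14 and all protein-coding genes 15.5. These CPM values are not divided by transcript length.

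The lncRNA LOC111886953 stood above all other members. It had 112, 87.9 and 112 CPM at day 0, 108, 131 and 175 CPM under visible light at day 6, 178, 92.1 and 135 CPM at UVB 2.5 h, and 133 and 166 CPM in the 2 deep libraries of UVB 7.5 h. The groups overlapped, except that both deep UVB 7.5 h libraries lay above all 3 of day 0, and its coefficient of variation (CV, the SD over the mean of 11 libraries) was 24.3%, smaller than in all other members but LOC111888154. The deep Falstaff libraries together held 206042995 reads, where 3 reads, the limit that a count of 0 allows, correspond to 0.0146 CPM. On that limit LOC111886953 was at least 8928-fold higher in Luna bionda. Over the 66 members the bound ran from at least 98-fold to at least 8928-fold higher, with a median of at least 376-fold. These bounds take each read as a separate event and cover counting error only. They rest on the same 0 reads by which the members were chosen. For genes chosen in this way the limit can be too low and the bounds too high. The limit also pools 7 Falstaff libraries of unlike treatments. Read numbers were mostly even, and if every fragment gave 2 reads the limit would be 6 reads, with bounds from at least 49-fold to at least 4464-fold.

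After it came 5 members with medians between 15.9 and 28.4 CPM. The lncRNA LOC111916897 had 23.1, 24.2 and 23.4 CPM at day 0, 34.2, 28.4 and 36.8 CPM under visible light, 38.8, 5.70 and 7.31 CPM at UVB 2.5 h, and 31.5 and 30.3 CPM at UVB 7.5 h. It was even within each group except UVB 2.5 h, where replicate 1 was the highest of all 11 libraries and replicates 2 and 3 the lowest. The lncRNA LOC111897892 had a median of 24.7 CPM, from 11.8 to 46.8. LOC111894836 (22.3 CPM) and LOC111895572 (17.4 CPM), both lncRNAs, and the protein-coding LOC111905547 (15.9 CPM) are described with the group comparisons. The next were the lncRNA LOC111912369 at a median of 14.5 CPM, the protein-coding LOC111909005 at 12.8 CPM, and the lncRNAs LOC111891801 at 12.7 CPM and LOC111888990 at 11.8 CPM.

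The 15 protein-coding members had medians between 1.74 and 15.9 CPM. Below LOC111905547 and LOC111909005, LOC111907471 had a median of 8.40 CPM (3.58 to 18.7), LOC111900676 one of 8.28 CPM (3.15 to 24.4) and LOC111897818 one of 7.45 CPM (3.15 to 12.3). LOC111899427 (5.42 CPM), LOC111895907 (5.23 CPM), LOC122196382 (5.12 CPM) and LOC111921028 (4.72 CPM) followed. The lowest were LOC111875857 at 3.51 CPM, LOC111877397 at 3.45 CPM, LOC111891793 at 3.44 CPM, LOC111899426 at 2.94 CPM, LOC111918164 at 2.59 CPM and LOC111917746 at 1.74 CPM.

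At the rule's limits the values ran on without a gap. Just inside lay the lncRNAs LOC111879803, whose lowest library had 0.509 CPM, LOC111892365 with 0.578 CPM and LOC111880581 with 0.607 CPM. Just outside on the CPM minimum, with 0 reads in deep Falstaff libraries, lay the lncRNA LOC111888716 and the protein-coding LOC111891593, each with 0.497 CPM in its lowest library, and the lncRNA LOC111895151 with 0.485 CPM. On the Falstaff side LOC111897006, LOC111920697 and LOC128126820 met the CPM minimum but had 1 read each. In all, 26 genes met the minimum and had 1 to 3 reads summed over the 7 Falstaff libraries, and 27 had 4 to 10. Every member had at least 8 reads in each of the 11 libraries, 64 of the 66 had at least 10, and together they took 188402 of 310210645 reads.

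The spread between libraries was set beside that of other genes of like level. The members' CV ran from 19.2% to 83.4%, with a median of 45.9%, against 41.1% over all genes at the CPM minimum. Between 1 and 5 CPM, 29 members had a median CV of 45.9% and 3177 other genes one of 49.1%. Between 5 and 15 CPM, 31 members had 47.0% and 5406 others 43.1%. Between 15 and 150 CPM, 6 members had 39.2% and 7288 others 36.8%. The members' value was the lower one in the first of these ranges and the higher one in the other 2.

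By class, lncRNA members had a median CV of 43.8% and all lncRNAs at the minimum 42.1%. Protein-coding members had 53.1%, against 41.0% for all protein-coding genes, which were higher in level. The CV was over 50% for 26 members. The ratio of a member's highest library to its lowest ran from 1.88 to 28.5, with a median of 5.22, against 4.23 over all genes at the minimum.

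**Figure D2:**
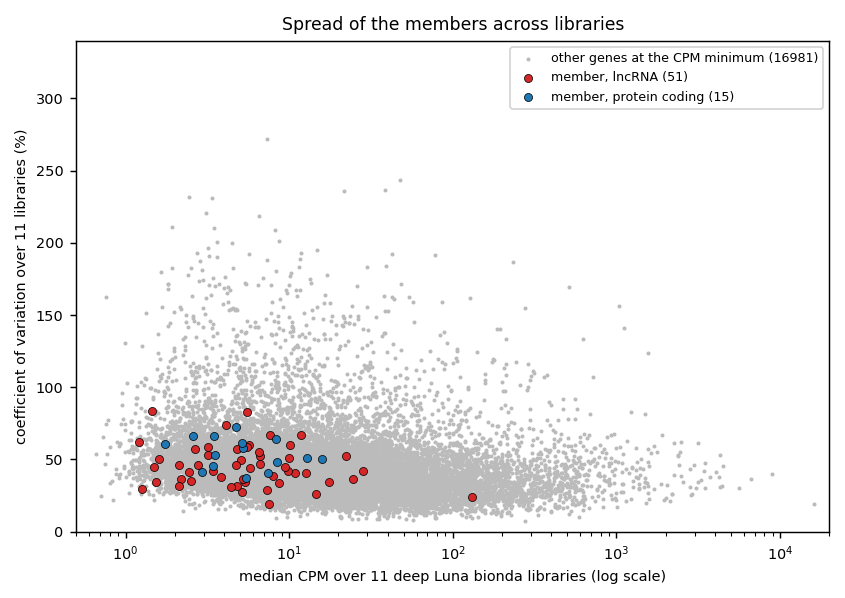
Coefficient of variation over the 11 deep Luna bionda libraries (in %) against median CPM (log axis), with 51 lncRNA members in red, 15 protein-coding members in blue and 16981 other genes at the CPM minimum in grey. The members, between 19.2% and 83.4%, lie among other genes of like level.

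The steadiest member was the lncRNA LOC111888154, with a CV of 19.2%. It had 9.79, 5.22 and 7.37 CPM at day 0, 8.53, 5.38 and 9.50 CPM under visible light, 7.69, 7.40 and 7.85 CPM at UVB 2.5 h, and 7.56 and 6.59 CPM at UVB 7.5 h. Its groups overlapped throughout. LOC111912369 came after LOC111886953, with a CV of 26.3% and levels between 8.07 and 21.7 CPM.

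The most variable members were the lncRNAs LOC111880436, LOC111915609 and LOC111919292, with CVs of 83.4%, 82.9% and 73.7%. LOC111880436 had 6.81 CPM in visible light replicate 1 and between 0.663 and 2.64 CPM in the other 10 libraries. LOC111915609 was also highest there, at 20.2 CPM, and between 0.828 and 7.79 CPM elsewhere. LOC111919292 instead split within groups, at 1.42, 9.08 and 9.46 CPM under visible light and at 1.71 and 9.84 CPM at UVB 7.5 h. LOC111888990 had the highest ratio of highest to lowest library, with 1.33 CPM in UVB 2.5 h replicate 2 and 38.1 CPM in visible light replicate 1.

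Those libraries were extreme for many members and for genes at large. UVB 2.5 h replicate 2 was the lowest of the 11 libraries for 29 members and for 41.1% of all genes at the minimum. The median log2 ratio of a gene's CPM in it to its own mean was -1.06 over members and -0.69 over all genes. Visible light replicate 1 was the highest library for 21 members and for 35.7% of all genes. Day 0 replicate 2, the shallowest of the 11, was the lowest for 11 members and the highest for 9, and for 12% and 11% of all genes.

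Group means followed those libraries. The median member had a group mean of 5.32 CPM at day 0, 6.40 CPM under visible light, 4.63 CPM at UVB 2.5 h and 6.02 CPM at UVB 7.5 h. UVB 2.5 h had the lowest group mean for 39 members (59.1%) and for 52.9% of all genes at the minimum, and visible light the highest for 29 members (43.9%) and 45.8% of all genes. UVB 7.5 h was the highest group for 18 members (27.3%) and for 17% of all genes. The ratio of the highest to the lowest group mean had a median of 1.94 over members and 1.86 over all genes, and it reached 2 for 29 members (43.9%) and 41.5% of all genes.

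Since most genes shifted in the same direction in CPM, the groups were compared on reads scaled by size factors, which centre most genes at no change. On the CPM scale the median of all genes tested lay at -0.57 (log2) between UVB 2.5 h and visible light, whereas on the scaled reads it lay at -0.05. All fold changes below are on log2(scaled reads + 1) from limma, fitted to 21998 genes in the 11 deep libraries, with Benjamini-Hochberg adjusted p. All 66 members passed the filter of a mean of 10 scaled reads.

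With all 11 deep libraries, no member passed an adjusted p of 0.05 by limma or edgeR in any comparison. Under limma 0 of 66 were called for day 6 visible light against day 0, for UVB 2.5 h or UVB 7.5 h against visible light, for UVB 7.5 h against UVB 2.5 h and for any difference among the 4 groups. The background was 0% of all genes each time. The edgeR quasi-likelihood test called 0 members in all 5 comparisons as well, and DESeq2 called 0 in the 4 pairwise ones. The DESeq2 background was 5.86% of all genes for UVB 2.5 h against visible light and 1.57% for UVB 7.5 h against UVB 2.5 h. It was 1 gene for UVB 7.5 h against visible light and 0 genes for day 6 against day 0. In UVB 2.5 h against visible light the smallest DESeq2 adjusted p of a member was 0.0501. DESeq2 called 3 members over the 4 groups, LOC122198252, LOC111907015 and LOC111875857 (4.55%), beside 4.43% of all genes. The median SE of a member's log2 fold change was 0.51 in the comparisons among groups of 3 and 0.57 with UVB 7.5 h, which had 2. In simulated counts for UVB 2.5 h against visible light, 61.5% of genes changed 8-fold were called, 10.5% of those changed 4-fold and 0% of those changed 2-fold. For each fold 200 genes were changed, drawn at random and not matched to the members' levels. In the data 17.7% of all genes had an unadjusted limma p under 0.05 there. The simulated rates need not hold for the members.

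For day 6 under visible light against day 0, the members' median log2 fold change was 0.08 (-0.02 over all genes). By limma's unadjusted p under 0.05, 1 member was found, against a background of 1.47% of all genes. In CPM the groups did not overlap for 6 members, all higher at day 6 (background 7.07%), and in scaled reads for 5 (background 8.45%). The member with the smallest p was the lncRNA LOC111911167. It had 15.2, 8.62 and 9.74 CPM at day 6 and 5.42, 1.66 and 4.56 CPM at day 0, with no overlap. Its log2 fold change was 1.48 (SE 0.53, limma adjusted p = 0.999).

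The next members by p in that comparison overlapped between the groups. The protein-coding LOC111918164 had 1.08, 2.59 and 3.60 CPM at day 6 and 3.19, 8.28 and 3.11 CPM at day 0, -1.15 on the log2 scale (SE 0.64). The lncRNA LOC111915609 had 20.2, 6.19 and 4.44 CPM at day 6 and 4.08, 0.828 and 7.79 CPM at day 0, 1.29 on the log2 scale (SE 0.74). In each of these genes a single library stood above the other 5.

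Whether members responded to the shorter UVB exposure was addressed by UVB 2.5 h against visible light. Between them 9 members had an unadjusted p under 0.05 (13.6%), 6 higher and 3 lower with UVB, against a background of 17.7% of all genes. The groups did not overlap in CPM for 10 members, 2 higher and 8 lower (background 22.8%), and in scaled reads for 6, of which 5 were higher and 1 lower (background 18.1%). The members' median was 0.02, against -0.05 over all genes. All UVB 2.5 h libraries carried low-number tags and all visible light libraries high-number tags, and in these 6 libraries exposure and tag series coincide. A term for tag series could be fitted only through day 0, where replicate 2 alone carried a low-number tag. With it, 2 members had an unadjusted p under 0.05, and the members' median was 0.20 (0.02 over all genes).

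LOC111894836 had the smallest p. It had 16.0, 3.22 and 5.11 CPM at UVB 2.5 h and 23.4, 32.6 and 33.6 CPM under visible light, and 22.3, 10.4 and 22.5 CPM at day 0. In CPM all 3 UVB libraries lay below all 3 visible light libraries, and in scaled reads they overlapped. The log2 fold change was -1.67 (SE 0.50, limma adjusted p = 0.216).

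The protein-coding LOC111905547 differed likewise. It had 11.9, 3.64 and 2.71 CPM at UVB 2.5 h and 16.4, 26.5 and 18.2 CPM under visible light, and a difference of -1.49 on the log2 scale (SE 0.50, limma adjusted p = 0.220). Replicate 1 of UVB 2.5 h was again the closest to visible light.

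The lncRNA LOC122198252 differed in the other direction. It had 4.64, 8.55 and 6.57 CPM at UVB 2.5 h and 2.02, 3.21 and 4.41 CPM under visible light, and 2.20, 0.994 and 2.23 CPM at day 0. The UVB 2.5 h libraries were its 3 highest among all 11, with no overlap on either scale. The log2 fold change was 1.58 (SE 0.56, limma adjusted p = 0.225), and it had the smallest p over the 4 groups (limma F test, adjusted p = 0.549). Over the 4 groups 5 members had an unadjusted p under 0.05, against a background of 8.93%.

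**Figure D3:**
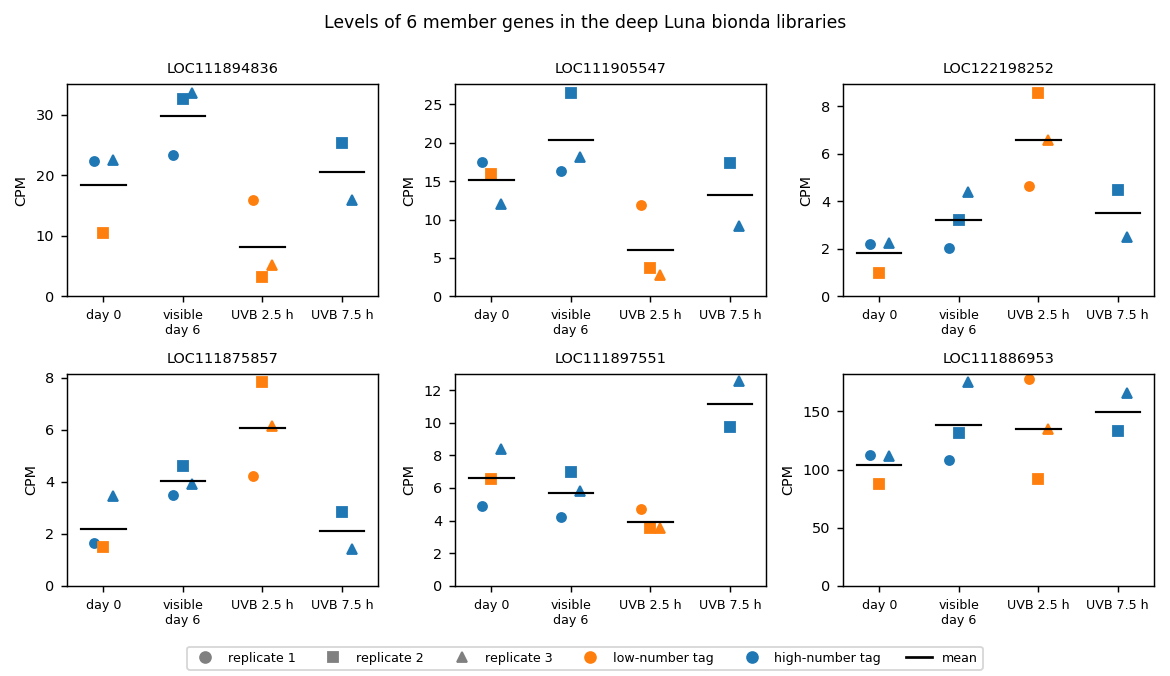
CPM of 6 members in the 11 deep Luna bionda libraries by group, each panel with its own axis from 0. Points are libraries, shaped by replicate and coloured by tag series (low-number or high-number), and bars are group means. LOC111894836 and LOC111905547 are lowest in UVB 2.5 h replicates 2 and 3, LOC122198252 is highest at UVB 2.5 h, and by limma with all 11 libraries no member shown passed the adjusted p of 0.05.

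Calls appeared when UVB 2.5 h replicate 1 was left out. Without it, limma called 8 members (12.1%) between UVB 2.5 h and visible light (background 15.1%). Lower with UVB were the lncRNAs LOC111916897 (log2 fold change -1.71, SE 0.29), LOC111894836 (-2.22, SE 0.43), LOC111888990 (-2.31, SE 0.51) and LOC111897213 (-1.84, SE 0.42), and the protein-coding LOC111905547 (-2.02, SE 0.44). Higher were the lncRNAs LOC111907015 (1.95, SE 0.40) and LOC111912664 (1.27, SE 0.34) and the protein-coding LOC111921028 (2.40, SE 0.63). Their adjusted p ran from 0.00362 to 0.0288. The library left out had 14.6 CPM of LOC111888990, 16.5 of LOC111897213, 7.28 of LOC111912664 and 3.29 of LOC111921028. Each of these values lay within the gene's range under visible light, as did that of LOC111907015. In the same library LOC111916897 lay above its visible light range, and LOC111894836 and LOC111905547 lay below theirs. LOC111897213 and LOC111912664 are named because of these calls, after their values were seen.

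Without that library, 6 members (9.09%) were also called between UVB 7.5 h and UVB 2.5 h (background 7.96%). Over the 4 groups 4 (6.06%) were called (background 7.18%). The 6 were LOC111916897, LOC111894836 and LOC111888990, higher at UVB 7.5 h, and LOC111907015, LOC111875857 and LOC111877397, lower. The 4 were LOC111916897, LOC111907015, LOC111894836 and LOC111888990. The shallow UVB 7.5 h library, not in this fit, had 6.68 CPM of LOC111916897, between UVB 2.5 h replicates 2 and 3 (5.70 and 7.31 CPM). It had 0 reads of LOC111894836, 8.91 CPM of LOC111888990 and 4.45 CPM of LOC111907015. LOC111875857 and LOC111877397, called lower, had 13.4 and 26.7 CPM in it, above all 11 deep libraries.

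UVB 7.5 h against visible light rests on 2 UVB libraries, and all 5 libraries carried high-number tags. Here 2 members had an unadjusted p under 0.05 (background 2.48%), and the members' median log2 fold change was 0.14 (0.01 over all genes). The groups did not overlap in CPM for 9 members (3 higher, 6 lower, background 24.2%) and in scaled reads for 7 (5 higher, 2 lower, background 21.6%). The lncRNA LOC111897551 had 9.73 and 12.5 CPM at UVB 7.5 h and 4.25, 6.96 and 5.80 CPM under visible light. Its UVB 7.5 h libraries were the highest of all 11, whereas the shallow UVB 7.5 h library held 0 reads of it, and its log2 fold change was 1.24 (SE 0.42, limma adjusted p = 1.0).

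The lncRNA LOC111895572 likewise had its 2 highest values at UVB 7.5 h. It had 26.1 and 34.3 CPM there and 12.7, 17.4 and 21.9 CPM under visible light, with a log2 fold change of 1.08 (SE 0.41). LOC111879803 lay lower, at 1.67 and 0.509 CPM with UVB 7.5 h and 2.60, 3.35 and 3.04 CPM under visible light, a log2 fold change of -1.39 (SE 0.64). In the shallow UVB 7.5 h library it had 10 reads, or 11.1 CPM, above all 11 deep libraries, and LOC111895572 had 0 reads. None of these 3 passed the adjusted p.

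Between the exposures, UVB 7.5 h against UVB 2.5 h, the members' median log2 fold change was 0.36 (0.06 over all genes), with 44 members higher and 22 lower. It was -0.01 with a term for tag series (0.01 over all genes) and -0.48 with the shallow UVB 7.5 h library included (-0.12 over all genes). It was 0.15 without UVB 2.5 h replicate 2 and 0.10 without UVB 7.5 h replicate 3 (0.02 and 0.03 over all genes). The 44 and 22 members were measured in the same libraries and are not independent of each other. The like split of all genes was not counted. Of the members, 6 had an unadjusted p under 0.05 (background 8.13%). The groups did not overlap in CPM for 13 (9 higher, 4 lower, background 21.2%) and in scaled reads for 15 (7 higher, 8 lower, background 19.6%). Among the deep libraries these exposures too coincide with tag series, while the shallow UVB 7.5 h library carried a low-number tag.

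The protein-coding LOC111875857 was the first by p. It had 2.85 and 1.40 CPM at UVB 7.5 h and 4.23, 7.83 and 6.16 CPM at UVB 2.5 h, without overlap, and its log2 fold change was -1.81 (SE 0.57, limma adjusted p = 0.601). The shallow UVB 7.5 h library had 12 reads of it, or 13.4 CPM, above all 11 deep libraries. LOC111897551 was higher at UVB 7.5 h than in the UVB 2.5 h libraries, which had 4.70, 3.52 and 3.52 CPM (1.24, SE 0.42). LOC111907015 had 4.33 and 4.90 CPM at UVB 7.5 h and 5.70, 18.4 and 14.5 CPM at UVB 2.5 h (-1.58, SE 0.57). In it UVB 2.5 h replicate 1 lay near the other groups, whose 8 libraries had 4.33 to 10.9 CPM.

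The 6 shallow libraries took no part in the choice of members, so they hold the same measure in data that the rule did not use. In Luna bionda UVB 7.5 h replicate 1, with 898111 reads, 43 of 66 members had reads (65.2%), against 90.03% of all 17047 genes at the minimum. It held 360 member reads, where the members' median CPM would give 511. By class, 31 of 51 lncRNA members (60.8%) and 12 of 15 protein-coding members (80%) had reads there, against 74.3% and 91.2% of the other genes of these classes.

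Detection in that library varied with level, for members and for the other genes at the minimum, and the shares were not tested against each other. Below 3 CPM reads were found for 50% of 16 members and 64.8% of others, from 3 to 6 CPM for 62.5% of 24 and 77.8%, from 6 to 12 CPM for 82.4% of 17 and 89.5%, and above 12 CPM for 66.7% of 9 and 97.5%. The last range missed LOC111894836, LOC111895572 and LOC111905547, each at 0 reads, whereas LOC111897892 had 29 reads. LOC111886953 had 26 reads, or 29.0 CPM, below its range in the deep libraries. In all, 33 members lay below their deep range, 22 within it and 11 above, among them LOC111899427 with 34 reads (37.9 CPM) and LOC111877397 with 24 reads (26.7 CPM). The 33 include the 23 members with 0 reads. Those lie below by the rule itself, which asks for at least 0.5 CPM in each deep library. The like count was not made for the other genes. The part that the different make-up of the shallow libraries, with its high psbA, has in these values was not tested.

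**Figure D4:**
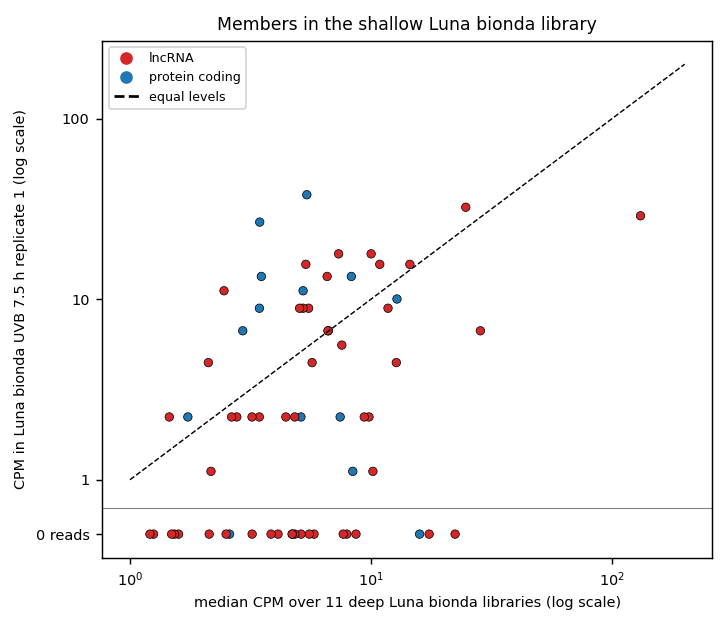
CPM of the 66 members in the shallow library Luna bionda UVB 7.5 h replicate 1 against their median over the 11 deep Luna bionda libraries, on log axes, with the 23 members without reads set on a line at the bottom and equal levels dashed. LOC111886953 is the point farthest right, at 131 CPM in the deep libraries and 29.0 CPM here.

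In Falstaff the shallow libraries had almost no member reads. Day 0 replicate 1, UVB 2.5 h replicate 1, visible light replicate 2 and UVA replicate 3 had 0 reads of any member. At the Luna bionda median levels, they would have held 589, 576, 472 and 268 member reads. In the same 4 libraries the 111 Falstaff-only genes were detected in 58.6%, 60.4%, 54.1% and 34.2% of cases. UVA replicate 1, with 464282 reads, held 2 reads each of LOC111895907, LOC111900676 and LOC111888990. That is 6 reads, where the Luna bionda levels would give 264.

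The genes beside members in the annotation were examined as something the rule did not use. The 66 members had 125 adjacent measured genes that were not members, of which 84 could be tested between the varieties over the 18 deep libraries. Of these, 29 were called by limma (34.5%), 17 higher and 12 lower in Luna bionda, against a background of 10.2% of 22602 genes other than members. The median absolute log2 difference was 0.58 for adjacent genes and 0.31 for those 22602. Of the members, 27 had at least 1 adjacent gene called, a share not counted for other genes. Neighbours share a chromosome segment, so they are not independent of each other, and the shares were not tested against each other. The fit held variety alone, with no term for day, light or tag series. The deep Falstaff libraries all carried high-number tags and include UVA, whereas Luna bionda had UVB 7.5 h and some low-number tags. Variety cannot be fully told apart from these in the calls.

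Some adjacent genes had few reads in a variety themselves. The lncRNA LOC111920213, beside LOC111920214, had 0 to 0.147 CPM in Luna bionda and 10.9 to 23.4 CPM in Falstaff, the opposite of its neighbour. The protein-coding LOC111912663, beside LOC111912664, had 2 reads in all 11 Luna bionda libraries and a median of 3.68 CPM in Falstaff. LOC111919294, beside LOC111919292, had 24 reads summed over Luna bionda and 0.967 to 4.12 CPM in Falstaff. On the other side, LOC111878191, beside LOC111878148, had 2.84 to 17.7 CPM in Luna bionda and 0.0967 to 1.43 CPM in Falstaff. These 4 neighbours and the members LOC111920214 and LOC111878148 were named after their values were seen.

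**Figure D5:**
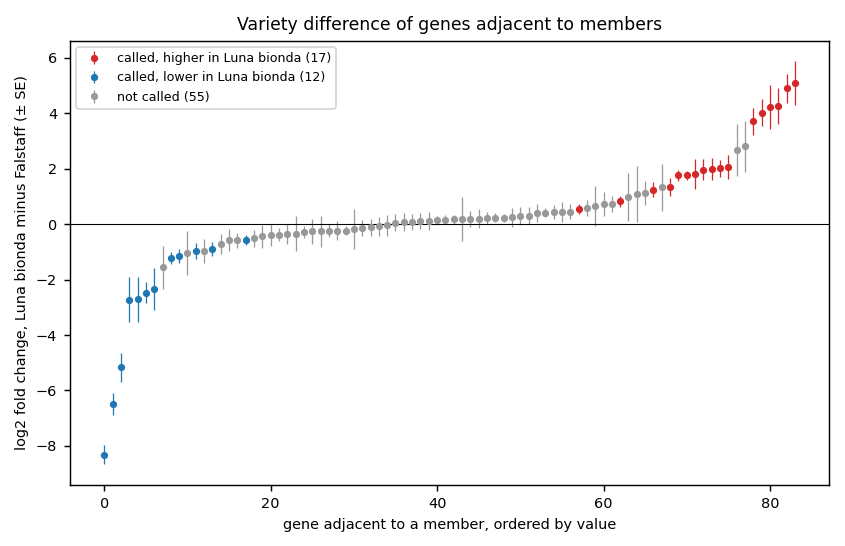
Log2 fold change (Luna bionda minus Falstaff, with SE) of the 84 tested genes adjacent to members, ordered by value over the 18 deep libraries. Red points are the 17 called higher in Luna bionda, blue points the 12 called lower, and grey points the 55 not called.

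Some members also lay near each other. With at most 10 other measured genes between consecutive members, 18 of the 66 fell into 8 runs. The like share was not counted for other genes, so whether members lie closer together was not tested. Directly adjacent were the protein-coding LOC111899426 and LOC111899427, the protein-coding LOC111891793 and the lncRNA LOC111891801, and the lncRNA LOC111897892 and the protein-coding LOC111909005. Levels within a pair differed, with medians of 2.94 and 5.42 CPM, of 3.44 and 12.7 CPM, and of 24.7 and 12.8 CPM.

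Between the members of 6 runs lay other measured genes, of which 29 could be tested, 11 being called higher and 1 lower in Luna bionda. Most of these calls fell in 2 runs, and in the other 4 runs 1 of 9 tested genes was called higher and 1 lower. Over the 22602 genes other than members, 932 were called higher and 1381 lower. Some genes of the runs, such as LOC111875858 and LOC122195507, are also counted among the adjacent genes above.

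The largest run held LOC111897892, LOC111909005 and the lncRNAs LOC111908899 and LOC122198157, with 19 other measured genes among them. Of the 16 that could be tested, 6 were called higher in Luna bionda and 0 lower. LOC111908966 had 3.03 to 27.3 CPM in Luna bionda and 4 reads summed over the 7 Falstaff libraries, and LOC111908922 had 3.48 to 24.2 CPM and 8 reads. The other 10 tested genes of the run were not called, and LOC111908852, for example, averaged 29.4 CPM in Luna bionda and 31.4 CPM in Falstaff.

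In the run of the protein-coding LOC111875857 and LOC122196382, 7 other measured genes lay between them, and all 4 that could be tested were called higher in Luna bionda. LOC111884345 had 10.3 to 24.3 CPM in Luna bionda and 6 reads summed over Falstaff, LOC111884344 had 7.16 to 19.7 CPM and 8 reads, and LOC111884346 had a median of 7.44 CPM and 18 reads. All Falstaff reads of each of these 3 genes came from a single library. LOC111875858 had up to 5.40 CPM in Luna bionda and 0 reads in Falstaff.

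For 3 members the annotated span overlaps another gene, namely LOC128126420 with LOC122198239, LOC111899426 with LOC111899459, and LOC122197676 with LOC122197677. Whether counting used strand is not given in the sources used here, so reads of such partners cannot be told apart and these levels are uncertain.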

How the data were processed

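Leaf RNA (polyA RNA per the labels) was amplified as cDNA and sequenced in paired reads from Nextera XT libraries. Per the submitters' processing notes, STAR and featureCounts 1.6.3 were used. For the STAR version, genome build, strand setting and multiply mapped reads, the sources used here give nothing. The deposited values were normalized signal per gene in 7 tables of 6 libraries each. The authors' tables of differential expression were not used, because by the labels most of their columns are not the groups that the table names give, in Luna bionda with day 0 and most of day 6 visible light exchanged. The group comparisons therefore hold for the labels only.

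Whole reads were recovered from each column as multiples of its smallest step. At a relative tolerance of 0.001, 100.0% of values came out whole. CPM is reads divided by the library's sum. Read numbers were even in 61.2% to 88.0% of detected genes per library. Of the 31499 identifiers, 31073 matched RefSeq (assembly Lsat_Salinas_v11), used for biotype and gene order only.

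The members, gene lists and tests were chosen with earlier results of these data known. Because the deposited values are normalized, limma 3.58.1 (R 4.3.3) was the main test. It used an intensity trend on log2(scaled reads + 1), with size factors from the median of ratios, a minimum mean of 10 and Benjamini-Hochberg adjustment. It was tested on simulated data. Alternatives were TMM and CPM scaling, pseudocounts of 0.5 and 5, no filter, edgeR 4.0.16, DESeq2 1.42.0, a replicate block, a term for tag series, other sets of libraries and leaving out each library. CPM scaling, the high-number tag series alone and the omission of 2 UVB 2.5 h libraries were chosen after seeing the data. Named were the 10 highest members, all protein-coding ones, the 3 of smallest and of largest CV, the 3 of smallest p per test, adjacent members and those at the rule's limits. Intervals and limits cover counting error only.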

Additional observations from a re-analysis of the deposited data

Results flagged for a closer look

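Reads of members appeared in a single Falstaff library, the shallow UVA 7.5 h replicate 1, which the rule left out. It held 6 reads, namely 2 each of LOC111895907, LOC111900676 and LOC111888990, or 4.31 CPM for each gene. Their medians over the deep Luna bionda libraries were 5.23, 8.28 and 11.8 CPM. Each gene was under the limit of 3 reads, and the sum was above it. The other 11 Falstaff libraries held 0 reads of the 66 members. In this library 88.0% of detected genes had an even number of reads, and 13.5% of the 111 Falstaff-only genes had reads.

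Reads of Falstaff-only genes appeared in the shallow library Luna bionda UVB 7.5 h replicate 1. It held 23 reads, of which 19 were of LOC111892761 (21.2 CPM) and 4 of LOC111921163 (4.45 CPM). Their medians over the deep Falstaff libraries were 1.82 and 0.988 CPM.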

How the results depend on the processing

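The 66 members became 83 with a CPM minimum of 0.25, 55 with 1, 92 when up to 3 Falstaff reads were allowed, 71 with size factors in place of CPM, and 40 when all 24 libraries had to meet the rule. Leaving out single libraries gave 66 to 85, with 85 when Falstaff visible light replicate 1 was left out. Of the 43 members with reads in the shallow Luna bionda library, 28 had at least 3. Members called stayed at 0 in all alternatives run for day 6 against day 0 and for UVB 7.5 h against visible light. Leaving out single libraries gave 0 to 8 members for UVB 2.5 h against visible light, 0 to 6 for UVB 7.5 h against UVB 2.5 h and 0 to 4 over the 4 groups. The values above 0 all came without UVB 2.5 h replicate 1, and DESeq2 called 3 over the 4 groups. DESeq2 called 1289 genes in all (5.86%) between UVB 2.5 h and visible light, where limma and edgeR called 0. The members' median there was -0.06 with TMM and -0.50 with CPM scaling, beside -0.13 and -0.57 over all genes. For UVB 7.5 h against visible light it was -0.12 with CPM scaling (-0.25 over all genes) and -0.44 with the shallow library. Without single libraries the members' median ran from 0.02 to 0.16 for day 6 against day 0, from -0.15 to 0.04 for UVB 2.5 h and from 0.08 to 0.34 for UVB 7.5 h against visible light, and from 0.10 to 0.52 between the exposures. A group left with 1 library was assumed to vary like the others.

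Of the genes adjacent to members, 29 were called between varieties. With all 24 libraries 14 of 69 were, beside 5.56% of all genes. With 2 adjacent genes on each side 47 of 169 were, beside 10.5% of all genes. Within the high-number tag series 30 of 89 were, beside 12.6% of all genes. With a replicate block 26 of 84 were, beside 9.79% of all genes, and the block left members called at 0 in all 5 comparisons. Over 15 same-numbered pairs the correlation of deviations ran from -0.53 to 0.21, over 0.1 in 3. In groups of 2 or 3 libraries the deviations are tied to each other. These values therefore cannot tell whether the numbers pair the libraries. Depth limits the absence: 0 reads over the deep Falstaff libraries allow up to 0.0146 CPM. This takes each read as a separate event and a gene not chosen for its 0 reads. The cause of these changes was not tested.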

Other observations

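Near-members with reads in only 1 Falstaff library were spread unevenly. Leaving out visible light replicate 1 added 19 genes, with 1 to 38 reads there (median 6). Their CPM in it had a median of 1.76% of their median in Luna bionda. Leaving out day 0 replicate 2 added 8 genes and day 0 replicate 3 added 6, with 1 or 2 reads each. In the mirrored direction, leaving out Luna bionda visible light replicate 2 added 35 genes to the 111 and any other Luna bionda library at most 6.

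With any CPM above 0 in each of the 11 Luna bionda libraries and 0 reads in the 7 Falstaff libraries, 116 genes met the rule.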
